A study of Schizosaccharomyces pombe with 144 samples.

Results

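The genes described here encode the fission yeast machinery that removes meiotic messenger RNAs from growing cells: mmi1 with its partner erh1, red1, mtl1 and iss10, and the genes rrp6, pla1 and pab2 of RNA tail formation, tail binding and decay. They were taken by name from a table of 5157 genes. Of 9 names, 8 had a row of their own, and the remaining name, pir1, is a synonym of iss10 in the reference annotation, so that 8 genes were measured. The RNA was total RNA from Schizosaccharomyces pombe, taken from asynchronously growing cells (mitosis) and at each hour from 0 h to 8 h of meiosis, with 1 library per stage and 10 libraries in all. According to the study's design text, the RNA served to judge from meiotic genes how synchronous the course was.

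All 10 libraries carried the same genotype, strain SPB2819 with wild-type clr4 (clr4wt). It is an h-/h- diploid with ade6-M210/ade6-M216 that lacks the normal pat1 gene (pat1::NatR/pat1::NatR) and in its place carries pat1-as(L95A)::HygR, listed for both copies. Its other alleles are a lacO array at cen2(D107)::KanR-ura4+-lacO with the reporter his7+::lacI-GFP, and lys1::MatPc-Bleo. The labels give growth in YES medium at 25°C or 30°C and do not give the agent that started meiosis. The temperature of each library is not given here, so an effect of temperature on differences between stages was not tested. Pat1 is the kinase that keeps cells out of meiosis, and pat1-as is an analog-sensitive allele of it. The stages describe this 1 strain.

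In growing cells Mmi1, an RNA-binding protein with a YTH domain, recognises a sequence element in many meiotic transcripts and sends them to decay. Erh1 binds Mmi1 directly, Iss10 connects Mmi1 to the scaffold protein Red1, and Red1 works with the RNA helicase Mtl1. Pla1 lengthens the poly(A) tail, Pab2 binds it in the nucleus, and Rrp6, an exonuclease of the nuclear exosome, degrades the transcript. In meiosis the RNA-binding protein Mei2, held down by Pat1 during growth, sequesters Mmi1 together with a noncoding RNA, and the meiotic transcripts are released.

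The labels of mitosis and 0 h were checked against a gene of that switch and a known transcript of the elimination system. The order of the later hours was not checked in this way. The mei2 level was 14.1 RPKM (reads scaled to gene length and to the reads of the library) in mitosis and 1240 at 0 h. The level of rec8, which encodes meiotic cohesin and is an elimination target, was 2.67 RPKM in mitosis and 222 at 0 h. The libraries held an estimated 14980441 to 20709345 reads, and the 95% counting (Poisson) interval of a member's level reached at most 9.37% above it and 8.76% below it. That interval covers counting error only. With 1 library per stage there is no replicate check for any difference below, no test was run, and differences are described by their size. In bulk RNA, fewer cells with a transcript and less of it per cell cannot be told apart.

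Levels are given as deposited, and where it matters also after each library was divided by its median ratio over genes, here called rescaled. The reason is a shift of the whole table. The median change of all genes against 0 h, on the log2(RPKM + 1) scale, was -0.72 at 6 h, -0.81 at 7 h and then -0.49 at 8 h in the deposited values, and lay between 0.00 and 0.07 at every hour once rescaled. Between mitosis and 0 h the median of all genes moved by 0.54 as deposited and by 0.03 after rescaling. Each of the 8 genes also overlaps at least 1 annotated noncoding RNA on the opposite strand, the longest overlaps being 1526 bases in mmi1 and 1205 in rrp6, and none of these RNAs has a row in the table. The library kit keeps strand, but whether strand was used in counting is not given in the sources used here, so antisense reads in these levels were not tested.

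The gene of the recognition protein itself, mmi1, was highest in growing cells. Its level was 27.8 RPKM in mitosis, then 20.4, 15.7, 13.3, 14.4, 20.6, 15.3, 11.7, 11.4 and 12.8 RPKM from 0 h to 8 h. All 9 meiotic libraries lay below the mitosis library, with a second high value at 4 h. Against mitosis the change was -0.43 at 0 h, with a counting SE of 0.056, and -1.22 at 7 h, with a counting SE of 0.067. After rescaling these changes were -0.92 and -0.91, and the lowest meiotic level moved from 7 h to 3 h, at 12.3 rescaled RPKM against 31.6 in mitosis. Within the meiotic hours the change of mmi1 at 7 h against 0 h, -0.79, was about that of the median gene and was 0.01 after rescaling.

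The partner gene erh1, which encodes the small protein Erh1, ran a different course. Its level was 86.7 RPKM in mitosis, then 112, 135, 121, 145, 110, 116, 112, 111 and 103 RPKM from 0 h to 8 h. As deposited the mitosis library was the lowest of the 10 and the 3 h library the highest, a ratio of 1.67. After rescaling the lowest was 0 h, at 89.0, and the highest 7 h, at 159. The difference between 0 h and mitosis therefore turned with the scaling, from 0.37 to -0.15. The gene model of erh1 in the reference spans 315 exonic bases, so its estimated reads, 528 to 825 per library, are approximate. An annotated noncoding RNA on the opposite strand overlaps the erh1 gene by 561 bases.

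The scaffold gene red1 and the helicase gene mtl1 had their highest meiotic levels at 3 h and their lowest at 7 h. For red1 the level was 49.4 RPKM in mitosis, then 75.1, 70.2, 67.8, 86.8, 84.9, 62.4, 41.9, 31.1 and 40.8 RPKM from 0 h to 8 h. For mtl1 it was 23.8 RPKM in mitosis, then 22.5, 33.4, 22.6, 34.3, 29.3, 19.5, 13.1, 10.4 and 13.9 RPKM. As deposited, both genes were above their mitotic level at 3 h and 4 h and below it from 6 h on. At 7 h against 0 h the changes were -1.24 for red1 and -1.05 for mtl1, and after rescaling -0.41 and -0.25. The annotated red1 and mtl1 genes overlap the protein-coding neighbours asa1 (68 bases, opposite strand) and cid16 (106 bases, same strand), respectively, so a share of their reads is uncertain.

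The bridge gene iss10 moved the other way. Its level was 39.8 RPKM in mitosis, then 39.5, 25.9, 27.4, 29.2, 60.8, 61.9, 52.3, 45.2 and 42.7 RPKM from 0 h to 8 h. The libraries from 1 h to 3 h were low, and every library from 4 h on was above both mitosis and 0 h. Between 3 h and 4 h the level rose by 1.03 (counting SE 0.054), and by 1.01 after rescaling. This was the only step between neighbouring hours at which any of the 8 genes passed 2-fold. In the table as a whole, 3.44% of genes were 2-fold or more higher at 4 h than at 3 h (3.17% after rescaling), and 18.9% were so at 1 step or more (18.3%). After rescaling the highest level was at 6 h, at 70.3, and the changes against 0 h at 6 h and 7 h were 1.14 and 1.03.

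Rrp6, the exosome's nuclear exonuclease, was encoded by a transcript that stood highest in growing cells. The rrp6 level was 66.2 RPKM in mitosis, then 38.2, 46.0, 36.9, 45.9, 53.5, 41.7, 30.2, 26.8 and 36.3 RPKM from 0 h to 8 h. All 9 meiotic libraries lay below mitosis. The difference at 0 h came to -0.78 in the deposited values and to -1.28 in the rescaled ones. The change at 7 h against 0 h turned from -0.50 to 0.33.

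The poly(A) polymerase gene pla1 was highest early in meiosis and then declined. Its level was 57.0 RPKM in mitosis, then 94.5, 109, 111, 101, 80.3, 67.8, 42.7, 32.6 and 38.4 RPKM from 0 h to 8 h. As deposited, from 2 h each library lay below the one before until 7 h. After rescaling the 5 h level, 68.7, was slightly above the 4 h level, 67.9, and the lowest was 8 h, at 44.8. The change at 7 h against 0 h was -1.51 (counting SE 0.045), and -0.67 after rescaling, while at 8 h it was -1.28 and -0.74. The pla1 gene overlaps its neighbour erg9 on the opposite strand by 45 bases.

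The gene for the nuclear poly(A)-binding protein, pab2, varied most. Its level was 113 RPKM in mitosis, then 98.3, 68.0, 74.5, 110, 70.1, 38.7, 25.4, 30.1 and 55.2 RPKM from 0 h to 8 h. The 3 h library was 0.03 below mitosis on the log2 scale as deposited, and the libraries from 5 h to 7 h formed a trough from which the 8 h library was higher. At 6 h the change was -1.91 against 0 h (counting SE 0.072) and -2.11 against mitosis (counting SE 0.071). After rescaling these were -1.17 and -1.88, and the 3 h library stood 0.44 below it.

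**Figure D1:**
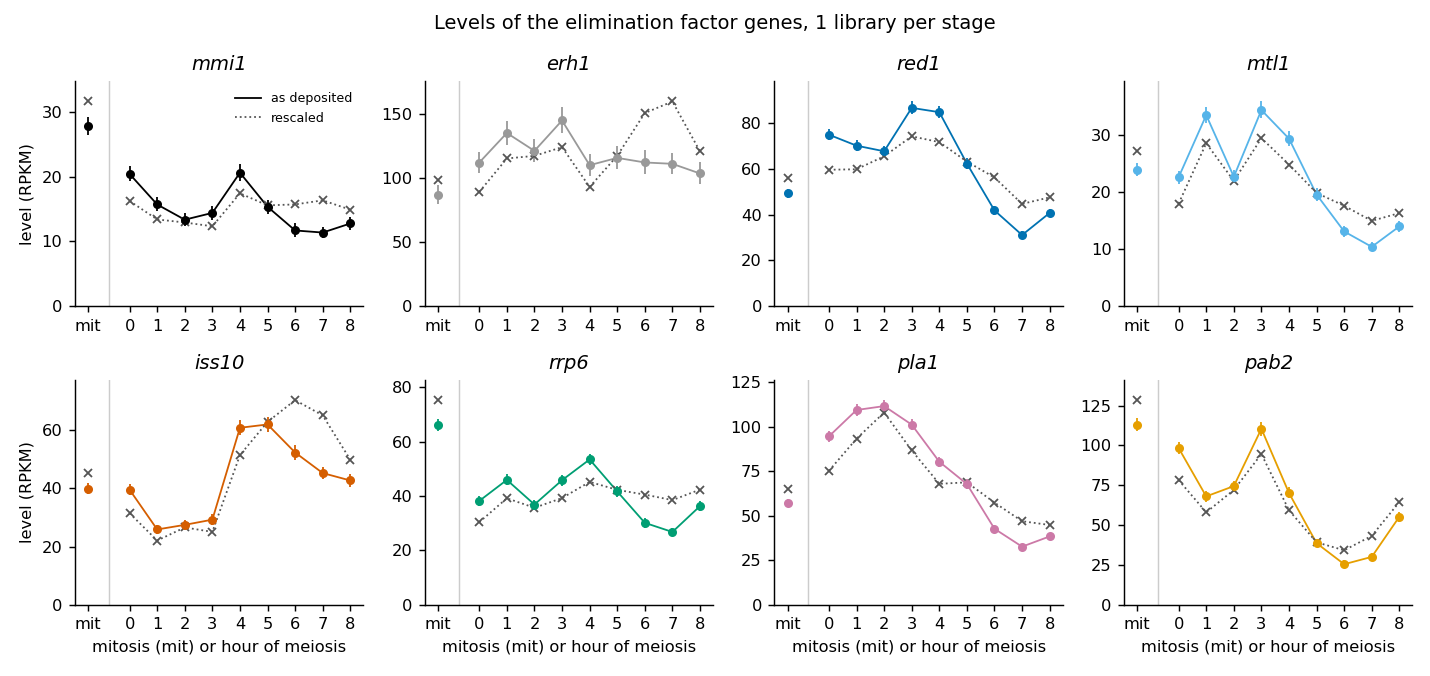
Level of each of the 8 genes (RPKM, vertical axis, from 0) in mitosis and at each hour of meiosis, with filled points and 95% counting intervals for the deposited values and crosses for rescaled values; each point is 1 library. In mmi1, rrp6 and pab2 the mitosis library is the highest in both scalings. The iss10 level steps up between 3 h and 4 h, and as deposited pla1 declines from 2 h to 7 h.

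Put as a count, mmi1, rrp6 and pab2 were highest in mitosis in both scalings, 3 of 8 genes, against 17.2% of 4937 genes as deposited and 24.3% of 4938 after rescaling. Between mitosis and 0 h, 0 of 8 genes passed the size rule, which asks for a 2-fold difference (1 on the log2(RPKM + 1) scale) and 5 RPKM in at least 1 of both libraries. Of all genes 29.1% passed as higher and 9.54% as lower at 0 h. After rescaling rrp6 passed as lower, with a background of 16.3% higher and 16.5% lower.

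At any hour against 0 h, 4 of 8 genes passed as lower (red1, mtl1, pla1 and pab2) and 0 as higher, where 51.8% of all genes were lower and 21.2% higher. The share of members was close to that background. After rescaling 1 passed as lower (pab2, at 6 h) and 1 as higher (iss10, at 6 h and 7 h), with 25.1% and 33.5% of all genes. Without the 7 h library 2 of the 4 calls were left, pla1 and pab2, since red1 and mtl1 passed at 7 h alone. All these comparisons share the 0 h library.

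Against mitosis, 4 of 8 genes passed as lower in at least 1 of the 9 meiotic libraries and 0 as higher, where 35.1% of all genes were lower and 48.1% higher. They were mmi1, mtl1, rrp6 and pab2. After rescaling mmi1, rrp6 and pab2 were again among 4 genes that passed, with iss10 in the place of mtl1, and 33.7% of all genes were lower and 39.7% higher. At 4-fold, pab2 at 6 h was the single call as deposited (12% of all genes lower at any hour), and 0 genes passed after rescaling (11.8%).

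**Figure D2:**
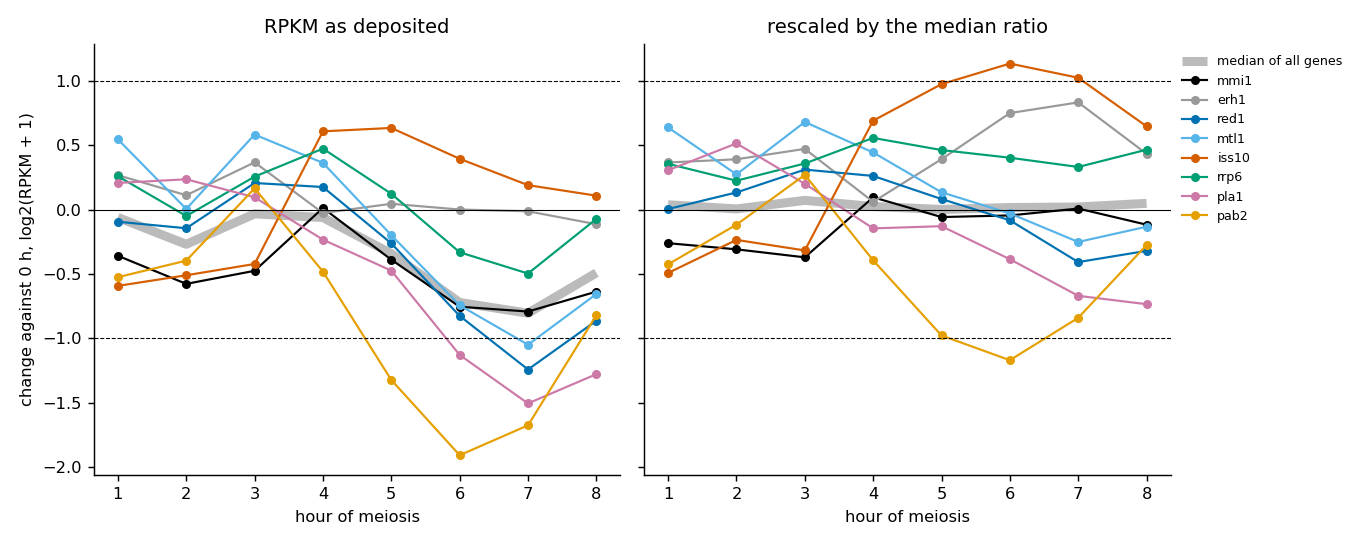
Change of each of the 8 genes against 0 h on the log2(RPKM + 1) scale (vertical axis) by hour of meiosis, as deposited (left) and rescaled (right), 1 library per hour; the thick grey line is the median of all genes and dashed lines mark 2-fold. As deposited most lines follow the grey line down to 7 h, and in both panels pab2 is lowest at 6 h and iss10 is above the other genes from 4 h.

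By mean level over the 10 libraries, in RPKM with the SD over stages, the order was erh1 (115 ± 16.04), pla1 (73.5 ± 30.1), pab2 (68.4 ± 31.7), red1 (61.0 ± 19.3), iss10 (42.5 ± 13.0), rrp6 (42.2 ± 11.5), mtl1 (22.3 ± 8.32) and mmi1 (16.3 ± 5.15), each with n = 10. The top and the lower end were steady. The erh1 level was the highest of the 8 in 9 libraries, with pab2 above it in mitosis, and rrp6 was above mtl1 in 10 of 10. The mmi1 level was the lowest in 8 libraries and mtl1 in the other two. Neighbours in the middle changed places between stages. The pla1 level was above pab2 in 6 of 10 libraries, pab2 above red1 in 5, red1 above iss10 in 7 and iss10 above rrp6 in 6. The SD over stages holds the changes of the course and is not an error of the level.

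Ranks within a library do not depend on the scaling. The mmi1 level was above that of 44.97% of genes in mitosis and of 13.8% to 20.9% in the meiotic libraries. For rrp6 the percentile was 71.9 in mitosis and 40.0 to 56.02 in meiosis, and for pab2 it was 82.7 and 44.7 to 78.0. The erh1 percentile stayed between 76.5 and 83.5 in all 10 libraries. For iss10 it was 57.4 in mitosis, 29.4 to 41.5 from 0 h to 3 h and 57.1 to 67.0 from 4 h on. As deposited, erh1 spanned 0.73 on the log2 scale from its lowest to its highest library, and 1.94% of 4937 genes spanned less, while red1 spanned 1.45 (29.2% of genes less). After rescaling red1 spanned least of the 8, at 0.72 (5.39% of genes less), and erh1 spanned 0.83 (9.32%).

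**Figure D3:**
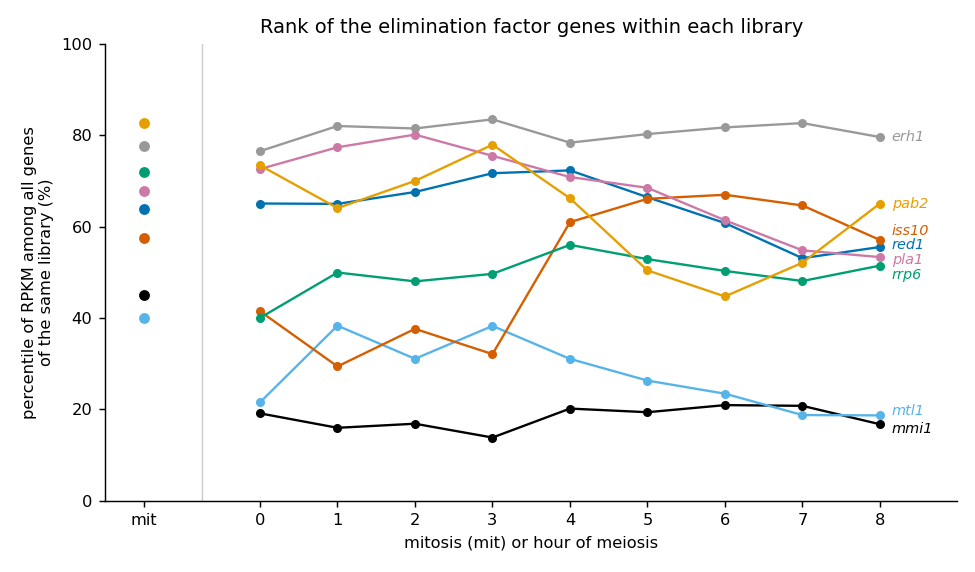
Percentile of each gene's RPKM among all genes of the same library (vertical axis, percent) in mitosis and at each hour of meiosis, 1 library per stage. The mmi1 points drop from 44.97 in mitosis to between 13.8 and 20.9, erh1 stays between 76.5 and 83.5, and iss10 goes from 32.1 at 3 h to 61.0 at 4 h.

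Ratios between 2 genes of one library are also free of the scaling. They compare transcript levels and do not give the balance between the proteins. The ratio of erh1 to mmi1 was 3.12 in mitosis and lay between 5.33 and 10.1 in the 9 meiotic libraries, with low values at 0 h (5.49) and 4 h. The ratio of red1 to mtl1, the scaffold gene to the helicase gene, had a narrow range, from 2.08 in mitosis to 3.33 at 0 h. The ratio of iss10 to red1 was 0.805 in mitosis and 0.337 at 3 h, then 0.716, 0.992, 1.25 and 1.45 at 4 h, 5 h, 6 h and 7 h, and 1.05 at 8 h. From 5 h to 8 h it was above mitosis in all 4 libraries, and from 0 h to 4 h below it in all 5.

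The transcript ratio of pab2 to pla1 was 1.98 in mitosis and below that in every meiotic library, from 0.571 at 5 h to 1.44 at 8 h. The ratio of pab2 to iss10 ranged widest among the members, from 3.78 at 3 h to 0.487 at 6 h. The ratio of rrp6 to dis3, the other exosome nuclease gene, was 1.04 to 1.67 over the 10 libraries, with mitosis at 1.16. The ratio of mtl1 to mtr4, the gene for the related helicase of the TRAMP complex, was 0.356 in mitosis and 0.807 to 1.94 in meiosis. The transcript ratio of mei2 to mmi1 was 0.508 in mitosis, 60.8 at 0 h and 17.8 to 47.9 from 1 h to 8 h.

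**Figure D4:**
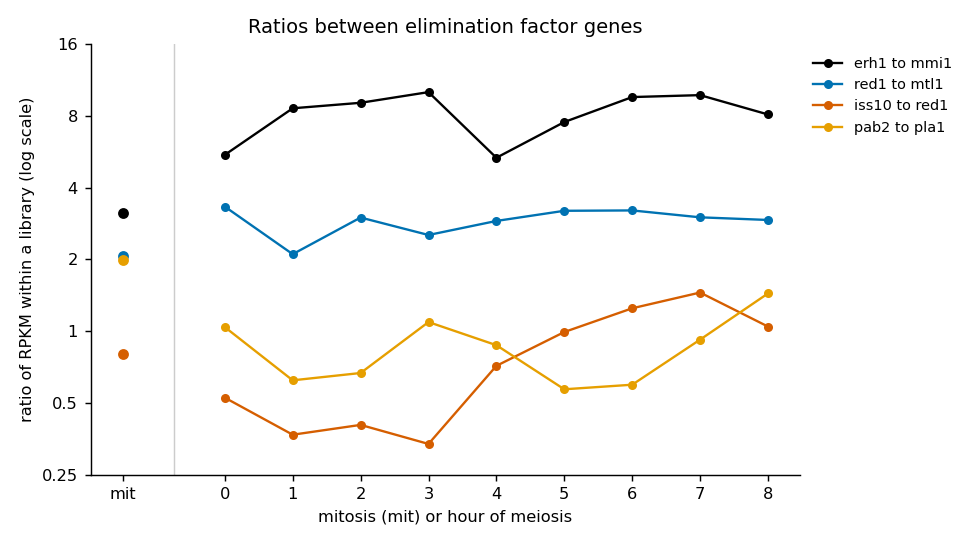
Ratio of RPKM between 2 genes of the same library (vertical axis, log scale) in mitosis and at each hour of meiosis, 1 library per stage. The ratio of erh1 to mmi1 is lowest in mitosis (3.12), iss10 to red1 goes from 0.337 at 3 h to 1.45 at 7 h, and red1 to mtl1 stays between 2.08 and 3.33.

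The genes around this machinery were taken from 7 lists of 57 genes, all of them measured, their means over the course reaching 1 RPKM. Among 7 elimination partners (red5, rmn1, pir2, cbc1, cbc2, rhn1 and nrl1, other proteins found with Red1 or the elimination system), 1 passed as lower at any hour against 0 h, nrl1, with 12.7 RPKM at 0 h and 5.31 at 7 h, and 0 passed after rescaling. Of all genes 51.8% passed as lower, and 25.1% after rescaling. The pir2 gene, for the Ars2 protein of the cap-binding complex, was highest in mitosis at 68.7 RPKM. The rhn1 gene, for a protein that binds the RNA polymerase tail, was highest at 1 h at 49.8 RPKM. The median change of these 7 genes at 7 h was -0.89, against -0.81 for all genes and -0.92 for the 8 members.

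Genes of the nuclear exosome, the complex to which Rrp6 belongs, stood highest in mitosis in 9 of 11 cases as deposited, against 17.2% of all genes. At any hour against 0 h, 8 of 11 passed as lower and 0 as higher, where all genes gave 51.8% and 21.2%. After rescaling 1 was lower, mtr3, and 3 were higher, namely rrp4, rrp40 and rrp45, where all genes gave 25.1% and 33.5%. The level of mtr3, which encodes a subunit of the exosome ring, was 48.8 RPKM in mitosis and 67.5 at 0 h, peaked with 106 at 3 h and reached 13.7 at 7 h. For the ring subunit gene rrp43 the level was 58.9 RPKM at 0 h against 17.3 at 6 h, and for rrp46 it was 31.1 against 9.66. Against mitosis all 11 passed as lower in at least 1 meiotic library in both scalings (35.1% of all genes as deposited and 33.7% rescaled), and rrp40 and mtr3 also passed as higher as deposited. In the TRAMP complex, which adds short tails for the exosome, cid14 (33.8 RPKM at 0 h and 11.4 at 6 h) and air1 (33.9 at 0 h and 14.5 at 7 h) passed as lower, 2 of 3 against 51.8% of all genes, and 0 of 3 after rescaling against 25.1%. The mtr4 level was 66.8 RPKM in mitosis, 23.8 at 0 h and 11.9 at 6 h.

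In the cleavage and polyadenylation machinery, which acts with Pla1, 10 of 16 genes passed as lower at any hour against 0 h and 1 as higher, near the 51.8% of all genes for lower and under the 21.2% for higher. After rescaling the counts were 7 and 2, where all genes gave 25.1% and 33.5%. The ctf1 level was 57.3 RPKM in mitosis, 95.6 at 0 h and 14.6 at 7 h. The rna15 level was 109, 259 and 46.6 RPKM at those stages. The yth1 level was 35.6 RPKM in mitosis, 91.2 at 0 h and 16.5 at 6 h. The changes of ctf1, rna15 and yth1 from 0 h were -2.63, -2.45 and -2.40, and after rescaling -1.81, -1.60 and -1.67, where pla1 itself was -1.51 and -0.67 at 7 h. The gene that passed as higher was swd22, with 69.6 RPKM at 0 h and 229 at 4 h. After rescaling pfs2 joined it and also passed as lower. Both are outside the naming rule and were picked with their values in view.

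Of the Ccr4-Not deadenylase complex, 3 of 7 genes passed as lower (not3, caf1 and rcd1) and 1 as higher, where all genes gave 51.8% and 21.2%. After rescaling the counts were 2 and 1, where all genes gave 25.1% and 33.5%. The not3 level was 121 RPKM at 0 h and 32.1 at 7 h, and rcd1 was 54.2 and 16.3. The nuclease gene ccr4 went the other way, with 95.3 RPKM in mitosis, 135 at 0 h and 326 at 6 h, which is 1.27 above 0 h on the log2 scale, or 2.02 once rescaled.

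The targets and the switch moved far more than the factors. Both lists were written as stage markers with earlier results of these data known, and they hold rec8 and mei2, used above to check labels. Their rise from mitosis to 0 h is therefore a description and not an independent result. All 9 listed elimination targets passed as higher at 0 h than in mitosis in both scalings, where 29.1% of all genes did as deposited and 16.3% rescaled, with a median change of 4.46 as deposited and 3.96 after rescaling, where the 8 factors had medians of -0.04 and -0.54. After 0 h the targets parted, with 4 of 9 passing as higher at some hour (mei4, spo5, rem1 and mug9) and 6 as lower, mug9 being in both counts, where all genes gave 21.2% and 51.8%. The level of rem1, a meiotic cyclin gene, was 0.449 RPKM in mitosis, 6.45 at 0 h and 209 at 6 h. The mug9 level was 8.85 RPKM in mitosis and 215 at 0 h, stood at 484 at 2 h and was 15.6 by 6 h, and rec8 was down to 16.5 RPKM at 5 h.

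All 4 genes of the Mei2 switch were higher at 0 h than in mitosis and passed as lower later against 0 h, in both scalings. Of all genes 29.1% were higher at 0 h (16.3% rescaled) and 51.8% lower later (25.1% rescaled). The level of ste11, the gene for the transcription factor that starts sexual development, was 9.01 RPKM in mitosis, 207 at 0 h and 21.3 at 7 h. The row named pat1 read 13.0 RPKM in mitosis, 231 at 0 h and 23.7 at 7 h, in a strain whose pat1 is the altered allele. The level of mei3, which encodes an inhibitor of Pat1, was 0.103 RPKM in mitosis and 3.96 at 1 h, below its 0 h level.

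**Figure D5:**
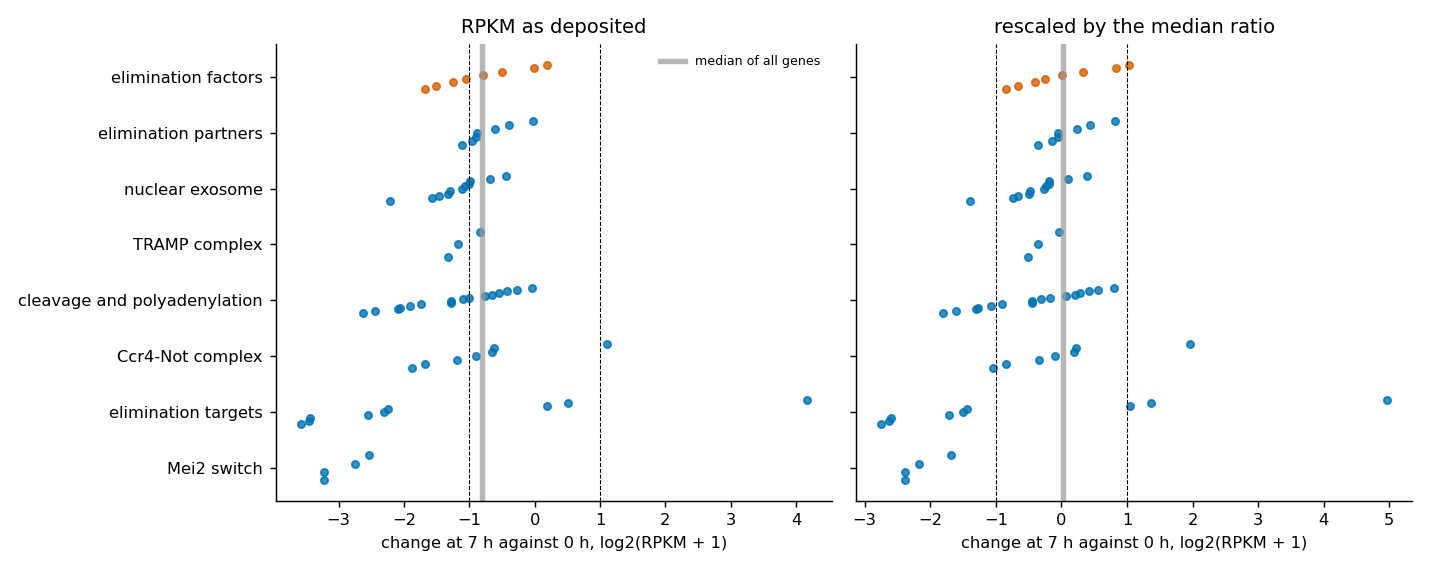
Change at 7 h against 0 h on the log2(RPKM + 1) scale (horizontal axis) for the 8 elimination factors (orange) and the genes of 7 lists (blue), as deposited (left) and rescaled (right), each point 1 gene from 1 library per stage; the grey line is the median of all genes and dashed lines mark 2-fold. The factors lie on both sides of the median of all genes, while the targets and the Mei2 switch reach below -3 as deposited.

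The genes whose course was most like that of mmi1 were found by Pearson's correlation of log2(RPKM + 1) over the 10 libraries, among the 4937 genes whose mean reached 5 RPKM. They were bop1 (r = 0.97), dus1 (0.96), hem3 (0.96), tpt1 (0.96) and SPAC56F8.03 (0.95). All 5 were highest in mitosis, bop1 at 75.6 RPKM with 25.2 to 53.5 in meiosis and dus1 at 66.4 with 18.6 to 36.3. After rescaling the 5 were rar1, lys12, dus1, bop1 and ade10, so that 2 were shared. Of the members, rrp6 came closest as deposited at rank 187 (r = 0.86), followed by pab2 at rank 712 (r = 0.69), and erh1 was at -0.47. After rescaling rrp6 was at rank 182, pab2 at rank 1260 (r = 0.40) and erh1 at -0.34. Between members the highest values as deposited were those of red1 with pla1 (r = 0.92) and with mtl1 (r = 0.91), which were 0.76 and 0.72 after rescaling. The pair of mmi1 with rrp6 was highest after rescaling, at 0.84. Much of this value rests on the mitosis library. There mmi1 stood at 31.6 and rrp6 at 75.3 rescaled RPKM, against 12.3 to 17.4 and 30.4 to 45.2 in meiosis. That library also weighs in the likeness of the listed genes to mmi1. Correlations over the meiotic libraries alone were not computed. The points of these correlations share their libraries, depth and scaling, and the values are a description.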

How the data were processed

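The authors deposited RPKM values per gene, reads scaled to gene length and library reads per the file headers. Beside them are 10 columns named TPM, which are not scaled to a fixed total and served here only to give relative depth. Tools listed for the series, per the submitters' processing notes, were STAR 2.7.3a, Bowtie 1.2.2, SAMtools 1.9, bedtools (2.26.0, 2.27.1), bcl2fastq 1.17 and cutadapt 1.18. How reads were counted, and on which annotation or strand, is not given in the sources used here. Of 144 samples, 134 were not analysed here.

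Each library's relative depth was taken from the median ratio of its TPM to its RPKM values. The reads these relative depths stand for were estimated from the steps between low RPKM values and exonic lengths. The lengths came from a reference annotation (ASM294v3, another build than the authors', used for names, lengths and neighbours). Only 53.7% of 1243 low values came out whole (tolerance 0.4%), so no count test was run. Calls use log2(RPKM + 1) differences, a scale that shrinks changes of low genes. The call rule was tested on simulated data with counting error alone. It called 0 of 4707 unchanged genes, and 50 of 50 genes given a 3-fold rise. The simulation held no difference between cultures and no shift of the whole table, so it cannot show how the rule fares under those. Rescaling divides a library by its median ratio to the geometric mean library.

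The members and lists were chosen with earlier results of these data known. By rule the text names every member, from each list the 3 genes that moved most from 0 h, and the 5 genes most like mmi1. It also names other listed genes that passed the size rule, and genes used for the label check or in ratios. From 58 listed genes, 1 was left out, clp1, because the name belongs to a phosphatase in this table. Alternatives were pseudocounts of 0.1 and 5, rescaling, no filter or one of 20 RPKM, 3-fold and 4-fold rules, mitosis as the reference, each hour left out, and a 3-point running mean. Promoter and protein sequences were not used here. The software was matplotlib 3.10.9, SciPy 1.17.1, NumPy 2.4.6, pandas 2.3.3 and Python 3.11.15.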

Additional observations from a re-analysis of the deposited data

How the results depend on the processing

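Between mitosis and 0 h, 1 gene was called after rescaling against 0 as deposited, and at any hour against 0 h 2 were called (1 higher, 1 lower) against 4. At any hour against 0 h the 4-fold rule called 0 genes, where 13.5% of all genes were lower and 7.79% higher. The 3-fold rule called 1 and a pseudocount of 5 left 3. Leaving out the 7 h library left 2, and each other hour left out left 4. Shares of all genes under these other settings are not given here. Of steps between neighbouring hours, the 1 call became 0 with a pseudocount of 5 and under the 4-fold and 3-fold rules, since the change lies close to 2-fold. At 4-fold, 2.76% of all genes passed as higher and 3.44% as lower at 1 such step or more. The highest stage stayed the same for 6 of 8 genes after rescaling, and over the meiotic hours alone the largest 3-point running mean fell at a gene's highest hour for 5 of 8. Of 48 single changes, rescaling left 38 on the same side of 2-fold, brought 3 past it (iss10 at 6 h and 7 h, rrp6 at 0 h against mitosis) and took 7 below it. Both filters on low values and a pseudocount of 0.1 changed no count. No paired analysis was possible because each stage has 1 library and the columns carry no replicate numbers. Depth appeared to limit little here, since the counting SE of a member's change was at most 0.087 on the log2 scale. That SE rests on estimated reads and is itself approximate. Differences between cultures were not measured.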
